A study of Mus musculus with 8 samples.

Results

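Transcripts of 9 genes of the plasminogen activator system and of matrix proteolysis were followed in mouse embryonic stem cells: Plaur, Plau, Plat, Serpine2, Mmp2, Mmp9, Mmp14, Timp1 and Timp2. They were picked by name, with earlier results of these data known. Their probes were all non-control probes whose RefSeq accession maps to one of these symbols. This gave 10 of the 55681 non-control probes, 2 of them for Timp2 and 1 for each other gene. Of the 9 genes 8 passed the filter on dim probes and were tested among 22687 genes and unnamed features, and Plau did not. RNA was hybridised to 8 single-colour Agilent arrays, 2 biological replicates per group according to the design text. Every culture, the untreated one included, contained LIF, which holds stem cells in the undifferentiated state, and 250 nM PD173074, which blocks FGF receptors. One group received 250 nM 4OHT (4-hydroxytamoxifen) for 8 h followed by 2 h with 1 µM PD0325901, which blocks the ERK-activating kinase MEK, and is called the PD0325901 group here. The remaining groups form a time series of untreated cells and cells given 4OHT for 8 h or 10 h. 4OHT is commonly used to activate fusion proteins that carry a mutated oestrogen receptor domain. No such protein, cell line or clone is named in the labels, nor is it stated whether 4OHT was present while PD0325901 was. The series title refers to Erk-dependent transcripts. The PD0325901 group is therefore compared with 4OHT 10h, the group of equal total time, for differences that arose over the last 2 h. If 4OHT was removed at 8 h, this comparison holds its removal as well as MEK inhibition, and they cannot be told apart.

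Plasminogen is cleaved to the broad protease plasmin by urokinase (Plau) or by tissue plasminogen activator (Plat), and the urokinase receptor encoded by Plaur concentrates urokinase at the cell surface. Serpins such as Serpine2, also called protease nexin-1, block the activators, while matrix metalloproteinases digest collagens and other matrix proteins and are held in check by the TIMP proteins. Several of these genes, Plaur, Mmp9 and Timp1 among them, are widely described as targets of ERK signalling through AP-1 and ETS factors in other cell types, and urokinase and tissue activator are secreted by cells of the early mouse embryo.

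Values are log2 signals relative to the 75th percentile of the array, so levels of one probe can be compared between arrays but not with another probe. Changes are log2 differences of group means ± the standard error of a limma fit to all 8 arrays, and a change was called at an adjusted p under 0.05 after Benjamini-Hochberg adjustment over all 22687 genes and features. The number of arrays, 2 in each group, limits the precision. On each array of replicate 1 between 36889 and 37789 of 59305 non-control spots were well above background, and on each of replicate 2 between 30218 and 31433. All 10 embryonic stem cell markers on the arrays were well above background on every array. Between 15 and 18 of 18 markers of primitive and parietal endoderm were so as well, with summed linear levels between 316 and 480 times the 75th percentile. Of 16 fibroblast markers 7 to 11 were above background, and Lum, Prrx1 and Twist2 were so on none. Their summed level was 71.7 and 86.5 in the PD0325901 group, and 44.6 and 45.2 in untreated cells, 87.1 and 107 at 4OHT 8h and 88.3 and 107 at 4OHT 10h. Of 13 trophoblast markers 9 to 12 were above background, Tpbpa on no array, with summed levels of 53.1 and 54.2 in the PD0325901 group, and 19.3 and 22.9 in untreated cells, 37.5 and 44.2 at 4OHT 8h and 52.0 and 66.1 at 4OHT 10h. The fibroblast and trophoblast sums moved with 4OHT alongside several genes below. The part of the marker levels in the results was not tested. Vim made up most of the fibroblast sum, at log2 levels of 5.35 and 5.36 in untreated cells and 6.07 and 6.06 at 4OHT 8h. Single markers went both ways: at 4OHT 10h 4 of 9 tested fibroblast markers were called higher and 2 lower. Of 11 tested trophoblast markers 6 were higher and 3 lower, where 13.1% of all tested were higher and 14.8% lower. In bulk RNA a lower share of cells of one type and less RNA per cell cannot be told apart.

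Sequences upstream of the start site were available for 5 of the 9 genes (RefSeq, GRCm38.p6, 250 bases before to 50 after the start). They were searched on both strands for an AP-1 motif (TGANTCA), an ETS motif (CCGGAA), an EGR motif (GNGGGCG, which overlaps the GC box of SP factors) and an E-box (CACGTG). Plaur is shown as the one gene of the 9 called higher at both times of 4OHT and lower after PD0325901 in the limma fit reported. With the replicate number added to the fit as a block, Mmp9 met this too (fall against 4OHT 10h, adjusted p = 0.0131). No window was available for Mmp9. Timp1, which was called higher with 4OHT without a called difference after PD0325901 at equal time, is shown beside Plaur. Capitals mark the motifs found, and both sequences run 5′ to 3′ on the plus strand, Plaur at chr7:24462233-24462532 and Timp1 at chrX:20869916-20870215.
Plaur: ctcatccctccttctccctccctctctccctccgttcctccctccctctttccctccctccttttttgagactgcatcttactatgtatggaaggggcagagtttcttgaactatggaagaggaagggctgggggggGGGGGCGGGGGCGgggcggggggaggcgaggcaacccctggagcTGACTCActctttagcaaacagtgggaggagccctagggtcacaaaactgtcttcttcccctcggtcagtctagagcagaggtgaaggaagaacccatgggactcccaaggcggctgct
Timp1: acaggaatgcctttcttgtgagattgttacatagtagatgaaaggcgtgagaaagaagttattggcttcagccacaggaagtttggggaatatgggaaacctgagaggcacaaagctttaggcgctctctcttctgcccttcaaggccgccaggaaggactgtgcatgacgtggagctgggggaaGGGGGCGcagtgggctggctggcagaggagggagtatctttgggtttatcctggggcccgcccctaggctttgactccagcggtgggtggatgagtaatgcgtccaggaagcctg
The Plaur window held 1 AP-1 match, which started 69 bases before the annotated start site, and 2 EGR matches, 113 and 107 bases before it, that shared 1 base. AP-1 letters occur in 7.81% of the 32851 mouse promoter windows of the same length, and EGR letters in 31.3%. The Timp1 window held 1 EGR match, 65 bases before the start, and no match to the AP-1 letters searched. Letters that differ from a motif at 1 base were not counted in any window. In the Timp1 window these include tgagtaa, close to the AP-1 letters, and caggaa, close to the ETS letters. A window without a match can therefore hold variants of a motif. The exact ETS and E-box letters, present in 14.9% and 7.15% of all windows, were in neither. Of the other 3 windows, that of Serpine2 held 4 EGR matches, that of Mmp14 held 1 and that of Timp2 held none, and AP-1 letters were in none of them. A match describes letters in the window and is not a measured binding site.

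Among the receptor and the activators, Plaur rose strongly with 4OHT and fell within 2 h of PD0325901, Plat rose after PD0325901, and Plau was not well above background. Plaur levels were 4.39 and 4.50 in the PD0325901 group (replicates 1 and 2). In the time series they were 2.29 and 1.99 in untreated cells, 5.58 and 5.62 at 4OHT 8h, and 5.95 and 6.04 at 4OHT 10h. Each of the 4 groups had a range of its own, and no groups overlapped. The change was 3.46 ± 0.12 at 4OHT 8h against untreated, an 11.04-fold rise (adjusted p = 0.000206), and 3.86 ± 0.12 at 4OHT 10h, a 14.5-fold rise (adjusted p = 0.000108). Against 4OHT 10h the PD0325901 group fell by 1.55 ± 0.12 log2 units, or 2.92-fold (adjusted p = 0.00304), and the pairs of replicates 1 and 2 dropped by 1.56 and dropped by 1.54. The PD0325901 group nevertheless kept 4.95 times the untreated signal, a difference of 2.31 ± 0.12 (adjusted p = 0.000665). These 4 calls held with any 1 of the 8 arrays left out.

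**Figure D1:**
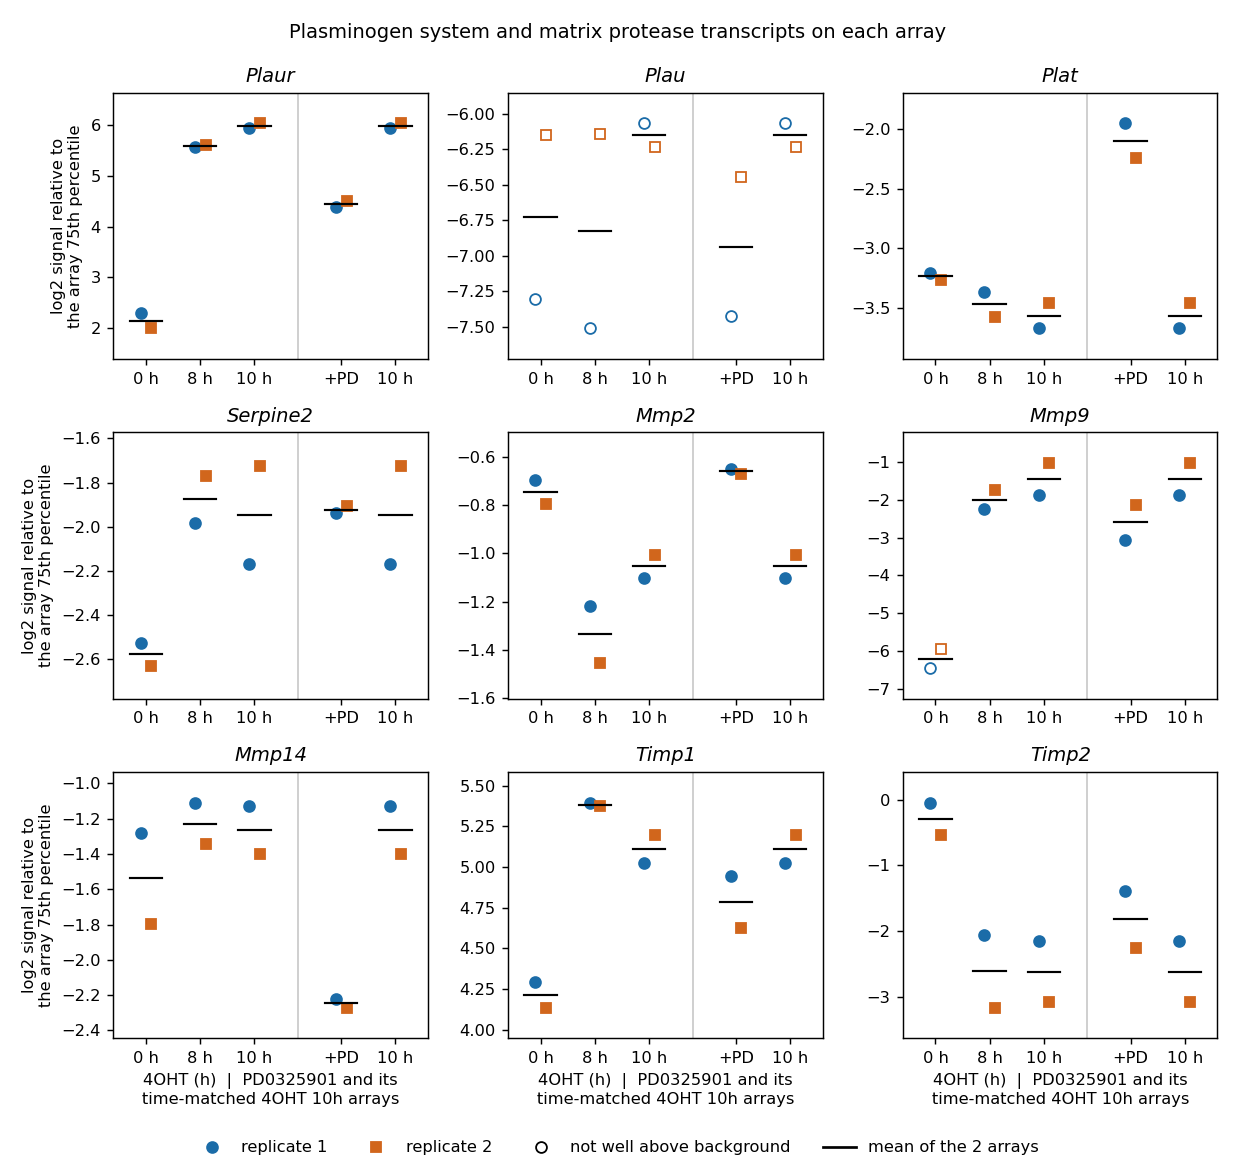
Log2 signal relative to the array's 75th percentile (y axis) on each of the 8 arrays for the 9 genes, with untreated (0 h), 4OHT 8 h and 10 h on the left of each panel and the PD0325901 group (+PD) beside 4OHT 10 h, repeated, on the right. Circles are replicate 1, squares replicate 2, open symbols arrays where the probe was not well above background, and lines group means; Plaur and Mmp9 sit highest at 4OHT 10h, and Plat stands apart in the PD0325901 group at -1.95 and -2.24.

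Tissue plasminogen activator, Plat, had levels of -1.95 and -2.24 in the PD0325901 group, above every array of the other groups. In the time series they were -3.21 and -3.26 in untreated cells, -3.37 and -3.57 at 4OHT 8h, and -3.67 and -3.46 at 4OHT 10h. The differences from untreated cells, -0.24 ± 0.14 at 8h (adjusted p = 0.282) and -0.33 ± 0.14 at 10h (adjusted p = 0.132), were not called. Plat rose by 1.47 ± 0.14 against 4OHT 10h, or 2.76-fold (adjusted p = 0.00548), and by 1.37 ± 0.14 against 4OHT 8h (adjusted p = 0.00690). It also exceeded untreated cells by 1.14 ± 0.14, or 2.20-fold (adjusted p = 0.00708), so that its level after PD0325901 lay above the starting level. The rises over both 4OHT groups missed the threshold in fits of only the 4 arrays compared (adjusted p = 0.0553 against 4OHT 10h and 0.0586 against 4OHT 8h), and held with any 1 array left out. The urokinase probe, Plau, was not well above background on any of the 8 arrays, with values between -7.51 and -6.07, and was not tested. The arrays that carried strong Plaur signal therefore hold no usable level for the activator its protein binds.

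Serpine2, an inhibitor of thrombin, urokinase and tissue plasminogen activator, was higher in all 3 groups given 4OHT, by 1.55 to 1.63 times. Its levels were -1.94 and -1.91 in the PD0325901 group, and -2.53 and -2.63 in untreated cells, -1.98 and -1.77 at 4OHT 8h, and -2.17 and -1.72 at 4OHT 10h. No array of a 4OHT-treated group overlapped the untreated arrays, while the treated groups overlapped one another. The changes were 0.70 ± 0.16 at 8h (adjusted p = 0.0311), 0.63 ± 0.16 at 10h (adjusted p = 0.0358) and 0.66 ± 0.16 in the PD0325901 group (adjusted p = 0.0476), each against untreated. The PD0325901 group differed from 4OHT 10h by 0.02 ± 0.16, with a 95% confidence interval of -0.38 to 0.42. These calls were near the threshold. At 8h the call was lost without untreated replicate 1 (adjusted p = 0.0947) or 2 (0.125), 4OHT 8h replicate 1 (0.0704) or 2 (0.146), or either PD0325901 replicate (0.0591 each), at 10h in 7 of 8 such fits and for the PD0325901 group in 6 of 8, up to 0.132 and 0.165.

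Among the metalloproteinases, the gelatinase Mmp9 appeared above background with 4OHT, the gelatinase Mmp2 was lower at 4OHT 8h, and the membrane-bound collagenase Mmp14 was lower after PD0325901. Mmp9 had levels of -3.06 and -2.13 in the PD0325901 group. In the time series it was not well above background on either untreated array (-6.44 and -5.95), and had levels of -2.25 and -1.75 at 4OHT 8h and -1.87 and -1.03 at 4OHT 10h. Because the untreated values give only a bound, folds were taken against the higher of the untreated value and the lowest signal well above background on each untreated array. On that scale Mmp9 was at least 7.04-fold higher at 4OHT 8h, at least 10.3-fold higher at 4OHT 10h and at least 4.65-fold higher in the PD0325901 group, all against untreated. The bound is approximate, since a probe can read above that signal without being well above background. A Timp2 probe did so on replicate 2 of 4OHT 10h, at 17.8 where the lowest signal well above background was 17.13. The adjusted p, from the fit to the measured values and not to the bound, was 0.00251 at 8h, 0.00140 at 10h and 0.00653 in the PD0325901 group, and Mmp9 passed the filter on dim probes only through the groups given 4OHT. The difference of the PD0325901 group from 4OHT 10h, -1.14 ± 0.43, was not called (adjusted p = 0.209), but it was nearly the same in the pair of replicates 1 (-1.18) and of replicates 2 (-1.10). With the replicate number as a block the adjusted p was 0.0131.

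Mmp2 levels were -0.65 and -0.67 in the PD0325901 group. In the time series they were -0.69 and -0.80 in untreated cells, -1.22 and -1.45 at 4OHT 8h, and -1.10 and -1.01 at 4OHT 10h. Mmp2 fell by 0.59 ± 0.10 at 8h, or 1.51-fold (adjusted p = 0.0129), and its difference at 10h, -0.31 ± 0.10, was not called (adjusted p = 0.0731). The PD0325901 arrays lay above both untreated arrays by 0.09 ± 0.10, which was not called (adjusted p = 0.603). The PD0325901 group exceeded 4OHT 8h by 0.68 ± 0.10 (adjusted p = 0.0205), and exceeded 4OHT 10h by 0.40 ± 0.10 without a call (adjusted p = 0.0927). The fall at 8h lost its call without untreated replicate 1 (adjusted p = 0.0648) or 4OHT 8h replicate 2 (0.0612), and the excess over 4OHT 8h without PD0325901 replicate 1 (0.0986) or 2 (0.0920) or 4OHT 8h replicate 2 (0.0904).

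Mmp14 encodes the membrane enzyme that activates the Mmp2 proenzyme, a step in which the Timp2 protein serves as the bridge. Its levels were -2.22 and -2.27 in the PD0325901 group, under all 6 other arrays. In the time series they were -1.28 and -1.79 in untreated cells, -1.11 and -1.34 at 4OHT 8h, and -1.13 and -1.40 at 4OHT 10h, ranges that overlapped. Mmp14 fell by 0.98 ± 0.20 against 4OHT 10h, or 1.98-fold (adjusted p = 0.0477), and by 1.02 ± 0.20 against 4OHT 8h, or 2.03-fold (adjusted p = 0.0410). The difference from untreated cells, -0.71 ± 0.20, was not called (adjusted p = 0.0641, or 0.0168 with the replicate number as a block). The call against 4OHT 10h was lost without replicate 1 or 2 of 4OHT 8h (adjusted p = 0.0819 each), of 4OHT 10h (0.178 and 0.128) or of the PD0325901 group (0.163 and 0.176), and that against 4OHT 8h in the same 6 fits, with values between 0.0667 and 0.167. Both were also lost under quantile normalization (0.0696 and 0.0573) and array median centring (0.0611 and 0.0630).

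The 2 TIMP genes moved in opposite directions with 4OHT: Timp1 rose and Timp2 fell. Timp1, a secreted inhibitor that also binds the Mmp9 proenzyme, had levels of 4.94 and 4.62 in the PD0325901 group, and 4.29 and 4.13 in untreated cells, 5.40 and 5.37 at 4OHT 8h, and 5.02 and 5.19 at 4OHT 10h. It rose by 1.17 ± 0.13 at 8h, or 2.25-fold (adjusted p = 0.00348), and by 0.90 ± 0.13 at 10h, or 1.86-fold (adjusted p = 0.00639), and both calls held with any 1 array left out. The PD0325901 arrays lay between the untreated and the 4OHT 10h arrays. They exceeded untreated cells by 0.57 ± 0.13 (adjusted p = 0.0411), a call that held in 1 of the 8 fits with an array left out and reached 0.154 without untreated replicate 2. Against 4OHT 10h the difference was -0.33 ± 0.13 (adjusted p = 0.239), and against 4OHT 8h -0.60 ± 0.13 (adjusted p = 0.0591, or 0.0468 with the replicate number as a block).

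Timp2 was measured by 2 probes, which had the same direction against untreated cells but gave unlike differences between the PD0325901 group and the 4OHT groups. On the brighter probe, used for the gene, levels were -1.38 and -2.26 in the PD0325901 group, and -0.05 and -0.54 in untreated cells, -2.06 and -3.17 at 4OHT 8h, and -2.15 and -3.09 at 4OHT 10h. By this probe Timp2 fell by 2.32 ± 0.53 at 8h, or 4.99-fold (adjusted p = 0.0299), and by 2.32 ± 0.53 at 10h, or 5.01-fold (adjusted p = 0.0249). The fall at 8h was not called without untreated replicate 1 (adjusted p = 0.13) or 2 (0.0836) or 4OHT 8h replicate 2 (0.123), nor the fall at 10h without untreated replicate 1 (0.113) or 2 (0.0694) or 4OHT 10h replicate 2 (0.112).

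In each group the array of replicate 1 read higher than that of replicate 2 on both Timp2 probes, and the endoderm marker list did the same, with a median level between -0.49 and -0.24 on arrays of replicate 1 and between -2.23 and -1.92 on those of replicate 2. With the replicate number as a block the adjusted p for the fall was 0.00106 at 8h and 0.000868 at 10h. The part of the endoderm list in the Timp2 values was not tested. The PD0325901 group differed from 4OHT 10h by 0.80 ± 0.53 on the brighter probe, which was not called (adjusted p = 0.452, or 0.0393 with the block). It differed from 4OHT 8h by 0.79 ± 0.53 (adjusted p = 0.445, or 0.0368 with the block). Against untreated cells the difference was -1.53 ± 0.53 (adjusted p = 0.108, or 0.00453 with the block and 0.017 with normexp background correction).

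On the other Timp2 probe the levels were -3.24 and -4.13 in the PD0325901 group, and -1.39 and -2.28 in untreated cells, -2.73 and -3.69 at 4OHT 8h and -3.19 and -4.22 at 4OHT 10h, the last not well above background. Its changes against untreated, -1.37 ± 0.56 at 8h (adjusted p = 0.15) and -1.87 ± 0.56 at 10h (adjusted p = 0.0600), were not called. Its PD0325901 values differed from 4OHT 10h by 0.02 ± 0.56 (adjusted p = 0.991), so this probe did not show the higher level that the brighter probe gave in both replicate pairs.

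**Figure D2:**
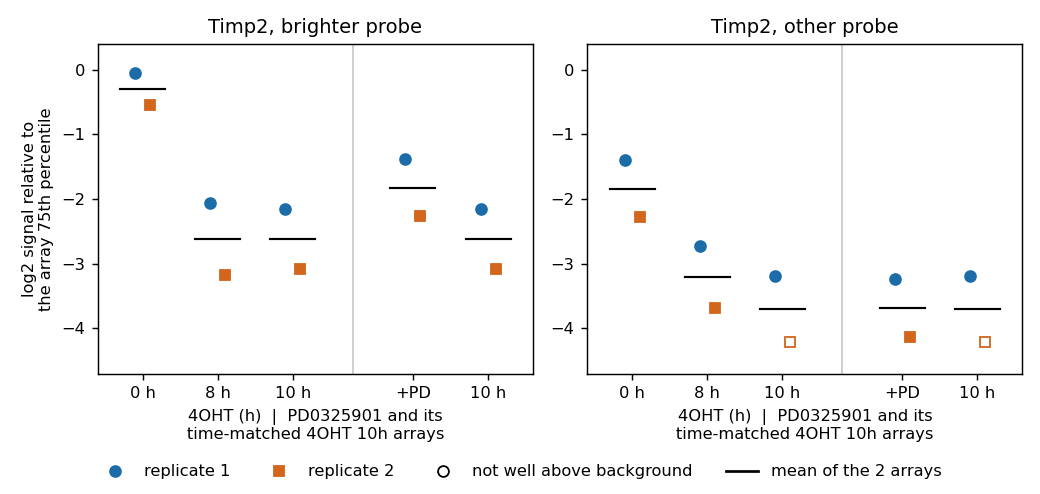
Log2 signal relative to the array's 75th percentile for both Timp2 probes on each array, with the 4OHT times on the left of each panel and the PD0325901 group beside 4OHT 10h on the right. Both probes were lower with 4OHT than in untreated cells, and in the PD0325901 group the brighter probe read above 4OHT 10h in each replicate pair while the other probe read within 0.09 of it.

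Counted together, 4 of the 8 tested genes rose at 4OHT 8h (Plaur, Mmp9, Timp1 and Serpine2) and 2 fell (Mmp2 and Timp2), where 21.7% of all genes and features tested were called, 10.3% higher and 11.5% lower. At 4OHT 10h the same 4 genes were higher and Timp2 alone was lower, where 27.9% of all tested were called, 13.1% higher and 14.8% lower. In the PD0325901 group against 4OHT 10h, 1 rose (Plat) and 2 fell (Plaur and Mmp14), where 6.12% of all tested were called, 3.24% higher and 2.87% lower. Against 4OHT 8h, 2 rose (Plat and Mmp2) and 2 fell (Plaur and Mmp14), where 6.51% of all tested were called, 3.4% higher and 3.11% lower. Against untreated cells 5 of the 8 were higher after PD0325901 (Plaur, Mmp9, Plat, Timp1 and Serpine2) and 0 lower by limma (2 at an unadjusted p under 0.05, Mmp14 and Timp2, both called lower with the replicate number as a block), where 15.9% of all tested were called, 7.06% higher and 8.8% lower. The median change of the 8 genes was 0.51 at 8h and 0.45 at 10h, beside -0.04 and -0.05 over all tested, and -0.15 for PD0325901 against 4OHT 10h, beside -0.04. Mmp9, a riser in all 3 comparisons with untreated cells, was below background in those cells. It passed the filter only through the groups given 4OHT, where it was high, so its rises add no support to these counts and medians. The 8 genes were chosen with earlier results of these data known, and no test of them as a set was made. The 3 comparisons with untreated cells share the untreated arrays, and those of PD0325901 share the PD0325901 arrays. Plaur fell by 1.16 ± 0.12 against 4OHT 8h (adjusted p = 0.00690), a call lost without PD0325901 replicate 1 (0.0506) or 4OHT 8h replicate 2 (0.0517).

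**Figure D3:**
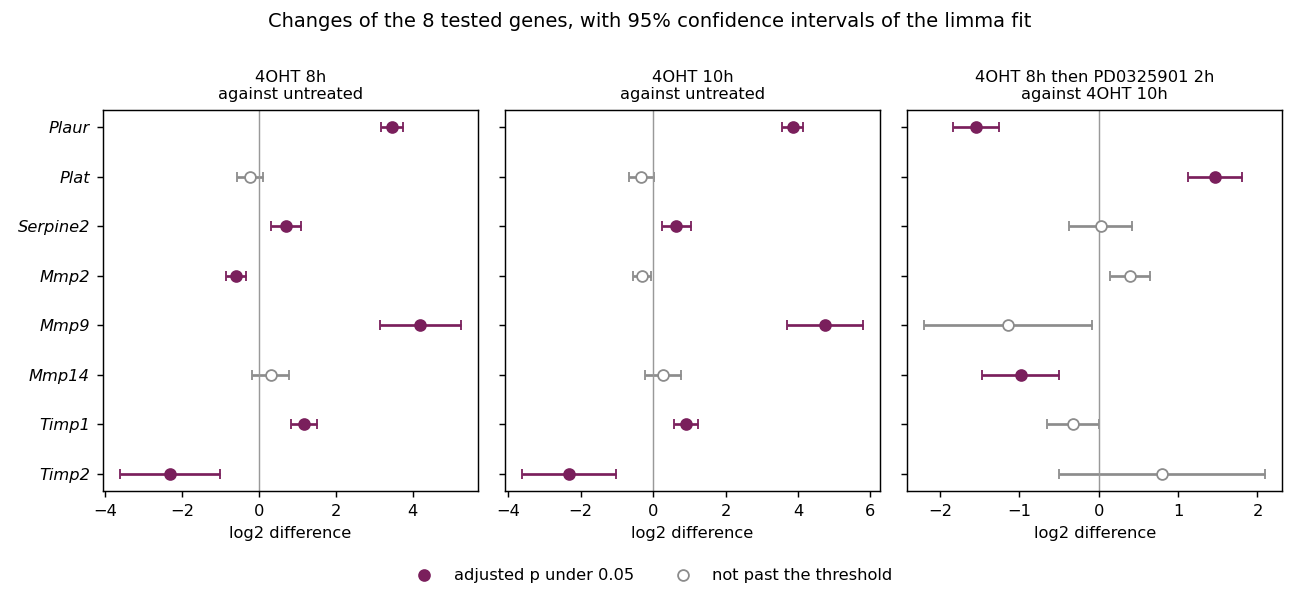
Log2 differences of the 8 tested genes with 95% confidence intervals of the limma fit, for 4OHT 8h and 4OHT 10h against untreated and for the PD0325901 group against 4OHT 10h. Filled points passed the adjusted p of 0.05; Plaur stands at 3.46, 3.86 and -1.55 with narrow intervals, Timp2 has the widest intervals, and the Mmp9 differences from untreated rest on untreated arrays below background.

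Between 4OHT 8h and 4OHT 10h no difference was called by limma for any of the 8 genes, nor for any of the 22687 genes and features (0%). An unadjusted p under 0.05 was found for 2 of the 8, Plaur and Mmp2, and for 1499 of all. The smallest adjusted p among all was 0.268. Plaur was higher at 10h in both replicate pairs, by 0.37 and 0.42 (0.39 ± 0.12, adjusted p = 0.663), and Timp1 was lower at 10h in both, with differences of -0.37 and -0.18 (adjusted p = 0.790). Mmp2 was higher at 10h by 0.12 and 0.45 (adjusted p = 0.742). For Timp2, Mmp14, Serpine2, Plat and Mmp9 the arrays of the 2 times overlapped.

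Across 109 other genes of extracellular proteolysis, listed in 5 groups by function, 71 were tested. Of these 18 rose and 16 fell at 4OHT 8h, which is 25.4% and 22.5% where all genes and features gave 10.3% and 11.5%. At 4OHT 10h 20 rose and 17 fell (28.2% and 23.9%, beside 13.1% and 14.8%), and after PD0325901 against 4OHT 10h 1 rose and 6 fell (1.41% and 8.45%, beside 3.24% and 2.87%). The shares over all tested include unnamed features. Of the 22687 tested 14493 have a symbol, and shares among these alone were not taken. The lists were chosen with earlier results of these data known, so shares above those of all tested give no support for an excess. No test of the lists was made. Calls against untreated cells printed for genes taken by the naming rule held with any 1 array left out, unless an exception is given.

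Among 25 other plasminogen and fibrinolysis genes 17 were tested, of which 9 rose and 3 fell at 4OHT 10h, with a median change of 0.34. The 12 calls became 9 to 12 with 1 array left out. S100a10 and Anxa2, the partners of the annexin A2 heterotetramer that binds plasminogen and tissue activator at the cell surface, rose together: S100a10 by 1.80 ± 0.07 at 8h (adjusted p = 0.000206) and 2.03 ± 0.07 at 10h (adjusted p = 0.000111), and Anxa2 by 1.15 ± 0.08 (adjusted p = 0.000855) and 1.62 ± 0.08 (adjusted p = 0.000278). Tissue factor, F3, which starts coagulation, rose by 0.64 ± 0.08 at 8h (adjusted p = 0.00526), although the mean of its kept probes gave -0.04 (adjusted p = 0.925). Vldlr, an endocytic receptor for complexes of protease and serpin, rose by 1.21 ± 0.09 at 10h (adjusted p = 0.000791). The related receptor Lrp1 fell by 0.97 ± 0.14 at 10h (adjusted p = 0.00620), its chaperone Lrpap1 by 2.04 ± 0.26 (adjusted p = 0.00423), and Mrc2, a collagen receptor known to associate with the urokinase receptor, by 1.15 ± 0.13 (adjusted p = 0.00251). Mrc2 was well above background on 1 of 2 arrays at 10h, and its call was lost with normexp background correction.

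After PD0325901 against 4OHT 10h, 1 of these 17 rose, Mrc2 by 0.82 ± 0.13 (adjusted p = 0.0229), and 3 fell, Vldlr by 0.62 ± 0.09 (adjusted p = 0.0214), F3 by 0.55 ± 0.08 (adjusted p = 0.0215) and S100a10 by 0.35 ± 0.07 (adjusted p = 0.0409). These calls held in 2, 3, 2 and 0 of the 8 fits with an array left out (adjusted p up to 0.115, 0.103, 0.126 and 0.218), so most single arrays, of the 4OHT 8h, 4OHT 10h and PD0325901 groups, ended them.

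Of 20 other metalloproteinase genes 6 were tested, and the limma fit called 3 lower and 0 higher at both 4OHT times (also 3 and 0 at an unadjusted p under 0.05). Mmp11, or stromelysin-3, fell by 1.30 ± 0.16 at 8h (adjusted p = 0.00430) and 1.40 ± 0.16 at 10h (adjusted p = 0.00276), and Mmp23 by 0.82 ± 0.11 (adjusted p = 0.00658) and 1.49 ± 0.11 (adjusted p = 0.000805). The membrane enzyme Mmp15 fell by 1.01 ± 0.12 at 10h (adjusted p = 0.00316), when it was well above background on 1 of 2 arrays, a call lost with normexp background correction. Its call at 8h held in 2 of 8 fits with an array left out (adjusted p up to 0.167). Of 11 inhibitors and inducers other than the 2 TIMPs above, 9 were tested, with 2 called lower and 0 higher at both times (also 2 and 0 at an unadjusted p under 0.05). The 2 calls at 10h became 1 without untreated replicate 1 or 2 or 4OHT 10h replicate 2, and 4 with the replicate number as a block. Reck, a membrane-anchored inhibitor of metalloproteinases, fell by 1.21 ± 0.12 at 8h (adjusted p = 0.00214) and 1.35 ± 0.12 at 10h (adjusted p = 0.00124), and was well above background on 1 of 2 arrays at each time. A2m, the broad trap alpha-2-macroglobulin, fell by 1.24 ± 0.28 at 10h (adjusted p = 0.0244), a call lost without untreated replicate 1 or 2 or 4OHT 10h replicate 2, up to 0.112. No gene of these 2 lists was called by limma after PD0325901 against 4OHT 10h, where 2 of each had an unadjusted p under 0.05, both higher, and the median changes were 0.25 and -0.01. With the replicate number as a block 1 gene of each list was called higher, Mmp11 by 0.64 (adjusted p = 0.0104) and Reck by 0.42 (adjusted p = 0.0289).

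Among 28 ADAM and ADAMTS proteases 18 were tested, with 6 higher and 5 lower at either 4OHT time. Adamts1, which cleaves proteoglycans, rose by 2.61 ± 0.20 at 8h (adjusted p = 0.000994) and 2.78 ± 0.20 at 10h (adjusted p = 0.000682). For PD0325901 against 4OHT 10h the limma fit called 1 gene of the list, Adamts1, which fell by 1.66 ± 0.20 (adjusted p = 0.0112). That fall was lost without 4OHT 10h replicate 1 or 2 or PD0325901 replicate 1, up to 0.0732. Adam8 rose by 1.93 ± 0.14 and Adamts7 by 1.90 ± 0.16 at 10h (adjusted p = 0.000729 and 0.00101), and their differences after PD0325901, -0.05 ± 0.14 and -0.16 ± 0.16, were not called. Adamts8 fell by 1.06 ± 0.07 at 10h (adjusted p = 0.000671). Adam22, a catalytically inactive synaptic ADAM, fell by 1.22 ± 0.12 at 10h (adjusted p = 0.00178), and Adamts9 by 1.13 ± 0.14 (adjusted p = 0.00335).

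Of 25 membrane serine proteases, convertases, cathepsins and their cystatin inhibitors 21 were tested, with 5 higher and 4 lower at 4OHT 10h. These 9 calls became 4 without 4OHT 10h replicate 1 and 5 without either untreated replicate, 4 to 7 with any 1 array left out, and 15 with the replicate number as a block. The lysosomal protease Ctsl rose by 1.95 ± 0.09 (adjusted p = 0.000257), its inhibitor Cst6 by 2.08 ± 0.12 (adjusted p = 0.000347), and the secreted serine protease Htra1 by 1.75 ± 0.23 (adjusted p = 0.00458). The secreted inhibitor Cst3 fell by 1.38 ± 0.14 (adjusted p = 0.00183). After PD0325901 against 4OHT 10h, Ctsl fell by 0.56 ± 0.09 (adjusted p = 0.0289) and Cst6 by 0.60 ± 0.12 (adjusted p = 0.0421), calls that held in 0 and 2 of the 8 fits with an array left out.

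**Figure D4:**
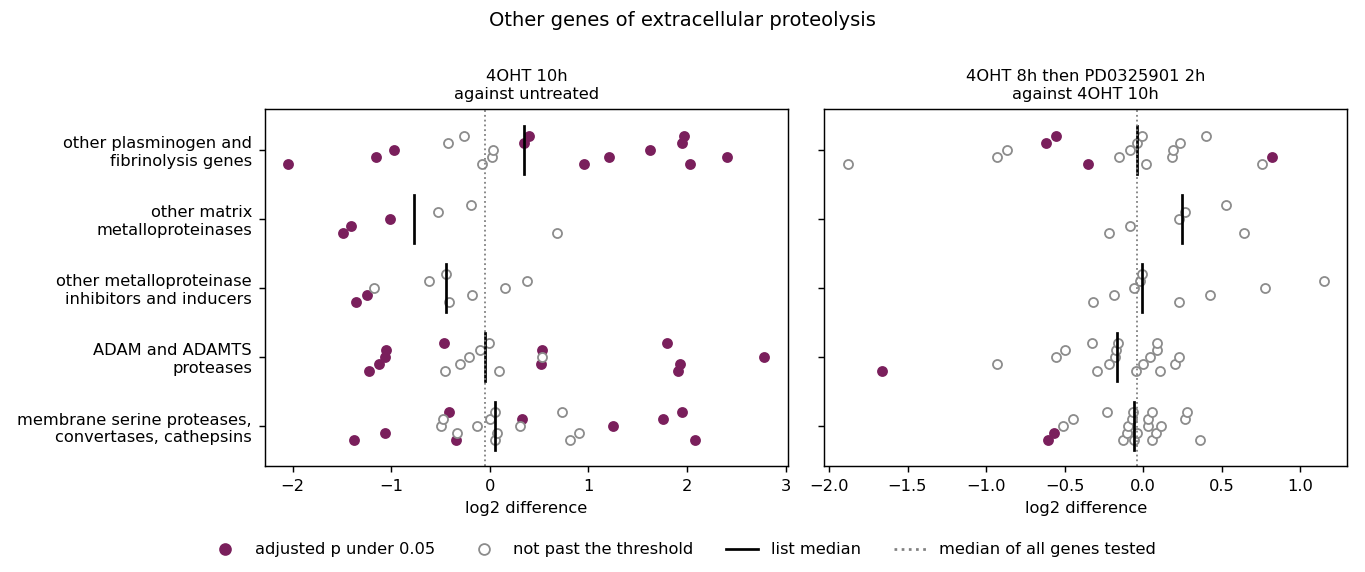
Log2 differences of the 71 tested genes in 5 lists of extracellular proteolysis, for 4OHT 10h against untreated (left) and the PD0325901 group against 4OHT 10h (right), 1 point per gene. Filled points passed the adjusted p of 0.05, black bars are list medians and the dotted line is the median over all genes tested; the other metalloproteinases have a median of -0.77 on the left.

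Within the 8 genes, log2 values over the 8 arrays correlated at 0.97 between Plaur and Mmp9 and 0.92 between Plaur and Timp1, at -0.95 between Mmp9 and Timp2 and at -0.90 between Plat and Mmp14 (Pearson, a description of 8 arrays that share 4 treatments). Mmp9 was not well above background on either untreated array. Its correlations, here and with the gene named below, rest in part on those values, which give only a bound. Among 14478 other named genes, the one with the pattern most like that of Plaur was Sp5, a transcription factor gene of the SP family (r = 0.998). Sp5 averaged -1.55 in untreated cells, 1.95 at 4OHT 8h and 2.45 at 4OHT 10h, and 0.81 in the PD0325901 group. The next most like Plaur were Sipa1l2 and Ppm1f (r = 0.997 each). For Plat it was Traf2 (r = 0.981), for Mmp9 2010204K13Rik (r = 0.998), for Timp1 Exosc6 (r = 0.993) and for Timp2 Dpysl2 (r = 0.995). For Serpine2 it was Rock2 (r = 0.987), for Mmp2 Trim63 (r = 0.982) and for Mmp14 Foxn2 (r = 0.977). A high r does not mean a change of like size. Traf2 averaged 3.17 at 4OHT 10h and 3.44 in the PD0325901 group. Exosc6 averaged 5.04 in untreated cells and 5.30 at 4OHT 8h.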

How the data were processed

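RNA from mouse embryonic stem cells was measured on 8 single-colour Agilent arrays, all on 1 slide with 1 scan date. The deposited scanner files hold a processed intensity per spot, corrected for background and not scaled between arrays, from Agilent Feature Extraction 11.0.1.1 per the file headers. The labels give Cy5 as dye and the files call their one channel green, which affects no direction. The value table that the authors deposited repeats this intensity on a linear scale, within 0.497%. An array carried 62976 spots, among them 3671 controls that were dropped. Saturated spots numbered 0, and 169 to 249 outlier spots per array were masked. Signals well above background began at 6.68 to 9.58 for replicate 1 and at 14.82 to 19.96 for replicate 2.

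From each log2 processed signal, the 75th percentile of the array's non-control spots was subtracted, and spots of a probe were averaged. A probe counted as above background on an array where most of its spots, or an equal share, were, and it was kept where this held on both arrays of 1 group or more (30329 probes). The kept probe of highest mean stood for its gene. RefSeq accessions gave 1 symbol for 27656 probes, several for 0 and none for 28025 (GRCm38.p6), and since the array was designed on mm9 no probe coordinates are given. The limma model (version 3.58.1, R 4.3.3, package data.table of version 1.17.8) held 1 mean for each of the 4 groups, and its moderated tests were two-sided, with 4 residual and 1.71 prior degrees of freedom and a median SD of 0.129. Python 3.11.15, numpy 2.4.6, pandas 2.3.3 and matplotlib 3.10.9 did the rest. The fit was tested on simulated data.

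Replicate numbers are rows of the slide. Deviations from group means correlated at 0.287 to 0.356 between same-numbered arrays for all 6 pairs of groups, so the number was taken as a pairing and tried as a block. Slide column and group coincide and cannot be told apart. Since p-values reflect the spread between these arrays alone, that spread may be technical. The genes and lists were chosen with earlier results of these data known. All 9 genes were named, with up to 3 called rises and 3 called falls of smallest adjusted p per list, and up to 3 genes of highest Pearson r per gene. Alternatives were quantile normalization, array median centring, normexp background correction (offset 50, on median signals), no filter on dim probes, a filter on all arrays, the mean of kept probes, an intensity trend with robust prior, only the groups compared, the replicate block, the value table, the other Timp2 probe and each array left out.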

Additional observations from a re-analysis of the deposited data

How the results depend on the processing

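Of 48 changes of the 8 genes, 22 kept direction and side of the threshold with each of 8 arrays left out and in each alternative that applied, 10 for most genes, since the filter on all arrays dropped Mmp9 and the other probe concerns Timp2 alone. The genes called numbered 6 at 4OHT 8h, 5 at 10h, 3, 4 and 5 for PD0325901 against 4OHT 10h, 4OHT 8h and untreated, and 0 between the times. Without a filter on dim probes they were 3 at 8h, 3 at 10h, 2 for PD0325901 against 4OHT 8h and 3 against untreated. With only the groups compared they were 1 against 4OHT 10h and 1 against 4OHT 8h, and with the replicate block 5 against 4OHT 10h. The limma fits of only the groups compared also ended calls against untreated cells. These were Mmp2 and Timp2 at 8h (adjusted p = 0.0628 and 0.0567), Serpine2 at 10h (0.0959) and Timp1 for PD0325901 (0.118). The block changed no call of the 8 genes other than those given above. For PD0325901 against 4OHT 10h the lists' calls became 6 with the block for other plasminogen genes (4 without it), 3 for ADAM proteases (1) and 5 for cathepsins and related genes (2), and 0 to 3, 0 to 1 and 0 to 1 with an array left out. The unfiltered fit ended the calls of Serpine2, Timp2 and Mmp14, those of Mmp2, and that of Timp1 for PD0325901 against untreated (adjusted p between 0.0558 and 0.162), and the mean of kept probes that of Timp2 at 8h (0.063). With 1 array left out, counts ranged from 3 to 6 at 8h, 3 to 5 at 10h, 2 to 3, 1 to 4 and 3 to 4 for the PD0325901 comparisons in that order, and 0 to 0 between the times.

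Some uncalled differences changed sign. Timp2 between the times was 0.015 under quantile normalization, 0.049 under median centring, 0.063 under normexp and -0.56 to 0.55 with an array left out. Mmp14 between the times was 0.016 under median centring and -0.17 to 0.099 with an array left out, Serpine2 was 0.017 under normexp and -0.29 to 0.15, and Plat was -0.20 to 0.012. Serpine2 in the PD0325901 group differed from 4OHT 10h by -0.053 under median centring and by -0.20 to 0.25 with an array left out, and from 4OHT 8h by 0.030 under normexp and by -0.15 to 0.059. Plat at 8h against untreated was 0.015 under normexp. The called rise of F3 at 8h was -0.037 with the mean of kept probes. The other Timp2 probe, chosen after seeing the data, gave -0.48 for PD0325901 against 4OHT 8h. The cause was not tested. Median centring moved the median of all genes to 0.10 at 8h and 0.14 at 10h, and calls to 3038 higher and 1511 lower at 8h (2329 and 2602 in the model reported), 4859 and 1851 at 10h (2977 and 3353), 490 and 683 for PD0325901 against 4OHT 10h (736 and 652), and 1871 and 915 against untreated (1601 and 1996). The block gave 1512 higher and 1308 lower for PD0325901 against 4OHT 10h. Dim signal limits Plau, Mmp9 in untreated cells and the other Timp2 probe.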
